A study of Mus musculus with 165 samples.

Results

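The step from 4h to 8h of tamoxifen treatment in IL3 was described from 6 RNA-Seq libraries, 2 of the 56 groups of a differentiation time course in PUER cells, chosen by their labels alone: the 3 libraries of IL3-OHT 4h and the 3 of IL3-OHT 8h. PUER cells are a mouse myeloid progenitor line whose own PU.1 gene, *Spi1*, is knocked out (Spi1-/-) and that expresses instead a PU.1 joined to the part of the estrogen receptor that binds its ligand. The fusion protein stays inactive until 4-hydroxy-tamoxifen (OHT) binds it, so OHT starts macrophage differentiation in medium with the cytokine IL3. Cells pre-treated with GCSF and then given OHT take the neutrophil path and were measured over the same hours.

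Both groups of the step were cells of this 1 line, kept throughout in 5 ng/ml IL3 and given 200 nM OHT, for 4h or for 8h. Before OHT they had spent 48 h in wells. The GCSF-OHT 4h and 8h libraries (3 each) came from cells that had IL3 replaced by 10 ng/ml GCSF for 48 h and then received 100 nM OHT, so the arms differed in cytokine, pre-treatment and OHT dose together. Undifferentiated cells in IL3 (IL3 0h, 3 libraries) had received no OHT and were the same samples that start the GCSF pre-treatment. They were taken before those 48 h in wells, whereas the GCSF 0h libraries were taken after them. The 0h libraries of the arms are therefore unlike baselines. OHT was not renewed before 40h, so 1 addition covered the whole step. Every time point was a separate plate of wells, and no IL3 libraries without OHT were taken at 4h and 8h. An effect of OHT, of time in the wells and of the plate therefore cannot be told apart within the step, and the p-values measure the spread between wells of 1 line. In a bulk sample, fewer cells making a transcript and less of it in each cell cannot be told apart either.

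PU.1 is an ETS-family transcription factor that opens and activates genes of the myeloid lineages, among them receptors and lysosomal enzymes of macrophages. Hypoxia-linked genes and glycolytic enzymes share oxygen-sensitive transcription factors, and ribosome production and chaperone capacity follow growth signals such as those from IL3.

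The 6 libraries held between 18733936 and 23716407 reads assigned to genes, as recovered from the normalized values. Progenitor and granule genes expected of such a line were read in all 6: the mean normalized count of *Elane* was 87558 at 4h and 63268 at 8h, that of *Prtn3* 21399.5 at 4h and 18546 at 8h, that of *Kit* 5747 at 4h and 3702 at 8h and that of *Myb* 1216 at 4h and 1888 at 8h. *Cd34* had no read at 8h and had no more than 4.33 normalized counts at 4h. *Spi1* transcripts, which include the fused copy, gave normalized counts of 12000.5, 11867 and 11911 at 4h and 8939, 8928 and 8902 at 8h, a log2 fold change of -0.42, under the fold threshold used here. Of the markers of other cells, 6 of 14 mast cell and basophil genes, 6 of 16 red cell and platelet genes, 6 of 20 lymphoid genes and 2 of 12 stromal genes had no read in any of the 6 libraries, including *Fcer1a*, *Hbb-bs*, *Pax5*, *Ebf1* and *Dcn*. Their summed levels per library were 103.2 to 129.99 at 4h and 109.5 to 136.00 at 8h for the mast cell and basophil list, and 69.3 to 85.8 at 4h and 38.6 to 50.6 at 8h for the lymphoid list. The red cell and platelet list summed to 2115 to 2243 and to 1692 to 1711, mostly *Vwf*, and the stromal list to 11725 to 12166 and to 9980.2 to 11279.6, mostly *Pecam1* and *Acta2*. *Hdc*, which is also in the primary granule list, was called higher at 8h, and *Itga2b*, *Cd79b* and *Pdgfrb* were among those called lower. The part of these markers in the results was not tested.

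A gene was called at an adjusted p under 0.05 (limma, Benjamini-Hochberg over all genes tested) together with an absolute log2 fold change over 0.58. Of 17414 genes tested, 847 were called higher at 8h than at 4h (4.86%) and 987 lower (5.67%). Changes over 2-fold were more often falls, 546 against 297 rises, and so were changes over 4-fold, 87 against 54. The excess of falls among called genes depended on the filter and the test. With a mean of at least 10, 779 genes were higher and 696 lower, and edgeR called 843 higher and 838 lower. The counts over 2-fold and 4-fold are given for the main setting only. The median log2 fold change of all genes was -0.01. The 3 and 3 libraries did not overlap for 22.1% of all genes with the higher values at 8h and for 23.3% with the lower values at 8h. These shares, 4.86% and 5.67%, are the background for every gene list below, and the values are normalized counts, that is reads divided by the size factor of the library.

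The largest rises were led by *Coro1a* and *Msr1*. *Coro1a* (ENSMUSG00000030707, chromosome 7 from 126699773 to 126707787 of GRCm38), an actin-binding protein of leukocytes, had 40.6, 41.2 and 59.1 at 4h and 328, 359 and 326 at 8h (log2 fold change 2.84, standard error 0.11, adjusted p = 2.98e-46). *Msr1* (ENSMUSG00000025044, chromosome 8 from 39581685 to 39642673), the macrophage scavenger receptor, had 18.6, 28.2 and 26.4 at 4h and 172.1, 172.4 and 172.3 at 8h (log2 fold change 2.79, standard error 0.36, adjusted p = 1.07e-10). Both genes were low at 4h. *Adgre1* (ENSMUSG00000004730, chromosome 17 from 57358691 to 57483527), which encodes the macrophage antigen F4/80, had 11.6, 8.67 and 13.6 at 4h and 78.2, 57.8 and 75.2 at 8h (log2 fold change 2.55, standard error 0.25, adjusted p = 2.83e-16). Its level stayed low at both times. The 15 largest rises and 15 largest falls were chosen among genes whose 4h and 8h libraries did not overlap. That separation is therefore no finding for them. For the other called genes below, separation comes from the same libraries as the call and adds no support to it.

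*Tln2*, a linker of integrins to actin, had 52.2, 45.5 and 58.2 at 4h and 273, 277 and 246 at 8h (log2 fold change 2.34, standard error 0.17, adjusted p = 2.49e-23). *Anxa6*, a calcium-dependent membrane-binding protein, had 721, 634 and 674 at 4h and 2719.9, 2583 and 2630.4 at 8h, with a log2 fold change of 1.97, and *Rasgrp4*, a Ras activator of myeloid and mast cells, 13.9, 15.2 and 17.3 at 4h and 60.7, 54.6 and 70.4 at 8h, with 1.93. Also among the 15 largest rises were *Ncam2*, a neural cell adhesion protein (17.4, 8.67 and 13.6 at 4h and 57.05, 53.5 and 49.5 at 8h; log2 fold change 1.98), and *Atp1b2*, a sodium pump subunit (99.7, 73.7 and 116.4 at 4h and 365, 328 and 366 at 8h; 1.88). *Sirpb1b* and *Sirpb1c*, activating receptors of myeloid cells, had log2 fold changes of 2.07 and 2.00, and *Sirpb1a* one of 2.03, with means of 9.02 at 4h and 39.6 at 8h. The copies of this family are close in sequence, so reads may have been shared among them.

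**Figure D1:**
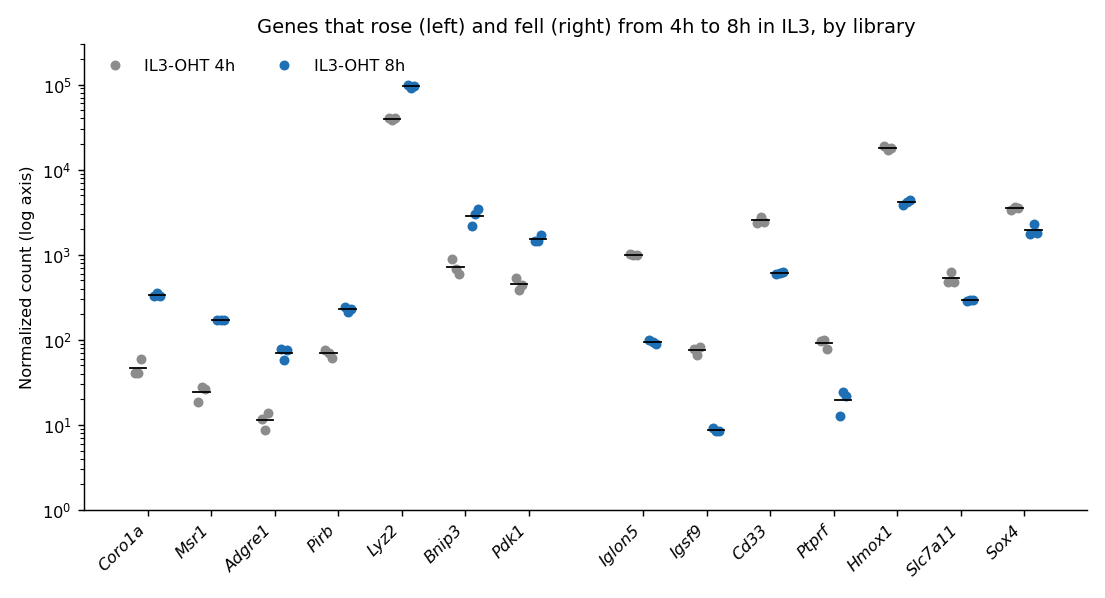
Normalized counts on a log axis for 7 genes that rose and 7 that fell from IL3-OHT 4h (grey points) to IL3-OHT 8h (blue points), 1 point per library, with the mean as a black line. *Lyz2* and *Hmox1* change at far higher counts than *Adgre1* and *Igsf9*.

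Of 32 tested monocyte and macrophage markers, 8 rose and 2 fell, and the median of the list was 0.11. *Lyz2* (ENSMUSG00000069516, chromosome 10 from 117277331 to 117282321), which encodes lysozyme, had 40346, 37859 and 40335 at 4h and 98119, 90415 and 97011 at 8h (log2 fold change 1.27, standard error 0.06, adjusted p = 7.69e-38). It was the most abundant of the 8 at 8h, and its libraries at 4h and at 8h did not overlap. *Itgam*, the CD11b integrin chain, had 485, 561 and 542 at 4h and 899.9, 967 and 926 at 8h (log2 fold change 0.82, standard error 0.06, adjusted p = 1.47e-22), and *Ccr2*, a receptor for monocyte chemokines, 169.3, 168.98 and 166 at 4h and 337, 406 and 324 at 8h (log2 fold change 1.07, standard error 0.15, adjusted p = 6.43e-10). *Ms4a6d* was called at levels at or under that of 3 reads and is given no fold. *Mmp9* and *Cx3cr1* were the others that rose, *Cx3cr1* with 1129.5, 1120.1 and 1166 at 4h and 1732, 1669 and 1765 at 8h and a log2 fold change of 0.60 that became 0.58, under the threshold, without IL3-OHT 8h replicate 3. *Lgals3*, a galactose-binding lectin of macrophages, fell (4741, 4403 and 4622 at 4h and 2773, 3123 and 2997 at 8h). The fall in *Cd84*, an adhesion receptor, by 0.59 on the log2 scale was lost without IL3-OHT 4h replicate 2 (-0.46), without IL3-OHT 4h replicate 3 (-0.54) or without IL3-OHT 8h replicate 2 (-0.50).

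Genes of the list of Fc and paired receptors moved in both directions. *Pirb*, an inhibitory receptor of myeloid cells, had 76.5, 70.4 and 60.9 at 4h and 246, 215.2 and 231 at 8h (log2 fold change 1.73, standard error 0.14, adjusted p = 1.66e-20). *Cd33*, a lectin that binds sialic acid, had 2348, 2794 and 2448 at 4h and 587, 605 and 625 at 8h (log2 fold change -2.06, standard error 0.13, adjusted p = 2.25e-28). The 4h and 8h libraries of both genes did not overlap. Of 24 tested Fc and paired receptors, 4 rose and 2 fell (2 rose when the fit held the compared groups alone), the others being *Sirpb1a*, *Tyrobp* and *Clec12a*, with means under 50 at 8h, and the Fc receptor *Fcgr4*, which fell (69.6, 63.9 and 67.3 at 4h and 40.5, 36.4 and 44.7 at 8h). Of 17 chemoattractant receptors 4 rose and 1 fell, and 2 rose without IL3-OHT 8h replicate 3. Of 35 integrins, selectins and adhesion molecules 3 rose and 2 fell: *Itga4* rose by 0.81, and *Itga6* (5470.3, 5865 and 5471 at 4h and 2953, 2911 and 2990.3 at 8h) and *Itga2b* (222, 231 and 226 at 4h and 91.1, 96.4 and 96.2 at 8h), integrin chains of progenitors and of the platelet line, fell by 0.92 and 1.25.

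Promoters from RefSeq (GRCm38.p6, 250 bases before to 50 after the start) were found for 602 of the 847 genes that rose and 728 of the 987 that fell, under 80% of each, so the shares of promoters with a motif are void as a check and no comparison is made from them. The letters GAGGAAGT, a PU.1-type ETS motif, were searched on both strands, and 3.73% of the 11654 promoters of tested genes held them. The 4 stretches below are from genes described here that hold the motif upstream of the start and whose call did not depend on 1 library. They are shown because 3 belong to genes that rose and 1 to a gene that fell, with the same letters (capitals, ACTTCCTC being the motif on the other strand).
*Pirb* (chr7:3720455-3720542, minus strand): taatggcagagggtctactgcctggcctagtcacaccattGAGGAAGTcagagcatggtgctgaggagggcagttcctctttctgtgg
*Ptgs1* (chr2:36230362-36230425, plus strand): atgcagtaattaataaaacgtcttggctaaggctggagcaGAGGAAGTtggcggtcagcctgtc
*Bcl2a1d* (chr9:88731907-88731994, minus strand): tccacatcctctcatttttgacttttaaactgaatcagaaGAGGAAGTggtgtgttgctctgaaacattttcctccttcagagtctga
*Fcgr4* (chr1:171018862-171018925, plus strand): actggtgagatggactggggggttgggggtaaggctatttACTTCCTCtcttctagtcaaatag
The motif began 120, 24, 104 and 24 bases before the start of the gene in this order. A match in these letters is a description of the window and not a site of binding.

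Of 11 tested primary granule genes 5 rose, *Hdc* and *Ctsc* among them, and none fell, although the median of the list was -0.20. *Ms4a3*, a marker of granulocyte-monocyte progenitors, had 584, 552 and 544 at 4h and 1085, 1043 and 1099 at 8h (log2 fold change 0.94, standard error 0.10, adjusted p = 8.86e-15), *Igsf6* had 1063, 1028 and 1044 at 4h and 2275, 2141 and 2116 at 8h (log2 fold change 1.06, standard error 0.07, adjusted p = 1.10e-25) and *Plac8* 3024, 2965 and 3073 at 4h and 4885, 4937 and 5186 at 8h. *Elane*, *Ctsg*, *Prtn3* and *Mpo*, the serine proteases and the peroxidase that fill these granules, were not called, and the mean of each was lower at 8h, *Elane* with 87558 at 4h and 63268 at 8h and *Ctsg* with 27773 at 4h and 21215 at 8h. In the lysosomal list 4 of 53 rose and 1 fell, with a median of -0.02, near the shares of all genes: *Lgmn* (82.3, 102.9 and 99.99 at 4h and 258, 237 and 253 at 8h), an asparaginyl endopeptidase, *Lipa* (1037, 1052 and 1133 at 4h and 2268, 2109.5 and 2112 at 8h), the acid lipase, *Ctsc* and *Gusb*. *Atp6v0d2*, a proton pump subunit of macrophages and osteoclasts, fell (528, 572 and 529 at 4h and 244, 248 and 248 at 8h) with a log2 fold change of -1.13. *Slc11a1*, the divalent metal transporter of the phagosome, rose at the same time (438, 429 and 446 at 4h and 1019, 901 and 975 at 8h).

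The largest falls were led by *Iglon5*, *Ptpn5* and *Igsf9*. *Iglon5* (ENSMUSG00000013367, chromosome 7 from 43472904 to 43490075), a neural cell adhesion protein, had 1014, 981 and 999.9 at 4h and 99.4, 94.2 and 90.4 at 8h (log2 fold change -3.39, standard error 0.35, adjusted p = 4.70e-15). Among the 15 largest falls only *Hmox1* had more counts at 4h. *Igsf9*, a synaptic adhesion protein, had 78.9, 66.1 and 82.7 at 4h and 9.20, 8.57 and 8.57 at 8h (log2 fold change -2.97, standard error 0.63, adjusted p = 5.08e-05) and *Ptpn5*, a phosphatase of neurons, 53.3, 80.2 and 51.8 at 4h and 5.52, 4.28 and 7.62 at 8h (log2 fold change -3.21, standard error 0.63, adjusted p = 9.72e-06). At 8h both were near 10 counts or below. The muscle sodium channel *Scn4a* had a log2 fold change of -2.79, the actin-binding *Dbn1* -2.77, the adaptor *Apba2* -2.52, the membrane metalloprotease *Mmp15* -2.46, the channel *Trpm6* -2.31, *Ppfia4* -2.30, *Dok7* -2.29 and the receptor phosphatase *Ptprf* -2.20. *Lamb1*, a laminin chain, had 368, 380.2 and 378 at 4h and 99.4, 74.96 and 83.8 at 8h and *Sgpp2*, a sphingosine phosphate phosphatase, 455, 456 and 432 at 4h and 95.7, 93.2 and 79.02 at 8h. Undifferentiated cells had means of 1222 counts of *Iglon5*, 193 of *Igsf9*, 18.6 of *Mmp15* and 124.6 of *Sgpp2*, and at 3h the means were 1536, 130.7, 81.97 and 459. The 3h mean was above that of undifferentiated cells for *Iglon5*, *Mmp15* and *Sgpp2* and below it for *Igsf9*.

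*Hmox1* (ENSMUSG00000005413, chromosome 8 from 75093621 to 75100589), the heme-degrading enzyme induced by oxidative stress, was the most abundant gene among the 15 largest falls. Its libraries had 18951, 17024 and 17822 at 4h and 3869, 4204 and 4396 at 8h (log2 fold change -2.11, standard error 0.10, adjusted p = 4.78e-36). The level of 17932 ± 968 (SD, n = 3) at 4h was above that of undifferentiated cells, 10670.3 ± 340.4 (SD, n = 3), and by 12h it was 4161 ± 255 (SD, n = 3). Other genes of the same stress response, those for glutathione and thioredoxin systems, split: of 28 tested, 5 fell and 2 rose, and 3 fell without IL3-OHT 4h replicate 1. *Gclc*, the rate-limiting enzyme of glutathione synthesis, had 2292, 2384 and 2293 at 4h and 1408, 1502 and 1454 at 8h (log2 fold change -0.68, standard error 0.06, adjusted p = 4.25e-18), *Srxn1*, sulfiredoxin, 2709, 2700.5 and 2793 at 4h and 1679, 1790.4 and 1698 at 8h (log2 fold change -0.67, standard error 0.07, adjusted p = 9.77e-16) and *Txnrd1*, thioredoxin reductase, 10665, 11025 and 10902 at 4h and 7371, 6948 and 7028 at 8h (log2 fold change -0.61, standard error 0.05, adjusted p = 4.87e-18). *Slc7a11*, the cystine importer that feeds glutathione synthesis, fell too, with 475, 629 and 484 at 4h and 288, 297 and 291 at 8h (log2 fold change -0.84, standard error 0.21, adjusted p = 7.01e-04). It was named from another list, that of the ATF4 amino acid stress response. Of 33 tested genes there 3 were called higher, and *Slc7a11* was the only member called lower. In the opposite direction *Gpx1*, a glutathione peroxidase, had 4783, 4635 and 4688 at 4h and 7553, 7910.3 and 7635 at 8h (log2 fold change 0.71, standard error 0.05, adjusted p = 4.53e-23) and *Prdx1*, a peroxiredoxin, 2520.01, 2689.6 and 2651 at 4h and 4153, 3888 and 4097 at 8h (log2 fold change 0.63, standard error 0.09, adjusted p = 1.00e-08).

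The promoter windows of *Slc7a11* and *Srxn1* each held a pair of short motifs upstream of the start. They are shown because both genes fell in the step, as *Hmox1* did, although they were named from different lists. Capitals mark TGATGNAA, a C/EBP-ATF element, in *Slc7a11* (beginning 66 and 47 bases before the start, the second on the other strand) and TGANTCA, an AP-1 motif, in *Srxn1* (the nearer one 45 bases before it).
*Slc7a11* (chr3:50443614-50443719, minus strand): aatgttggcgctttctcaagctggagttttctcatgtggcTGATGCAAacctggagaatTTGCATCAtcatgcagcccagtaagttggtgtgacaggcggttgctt
*Srxn1* (chr2:152105382-152105523, plus strand): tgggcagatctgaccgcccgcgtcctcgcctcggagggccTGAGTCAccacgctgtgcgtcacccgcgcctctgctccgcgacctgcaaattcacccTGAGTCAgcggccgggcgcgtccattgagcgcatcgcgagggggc
Among the 11654 promoters of tested genes 2.97% held TGATGNAA and 6.98% TGANTCA on either strand. *Prdx1*, which rose, also held TGANTCA, so the letters did not go with 1 direction in these examples.

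Iron and other metal handling was among the lists with the most calls, 4 of 34 higher and 7 lower. *Tfrc*, the transferrin receptor that takes up iron, had 6992, 8054 and 7837 at 4h and 10869.6, 12457 and 11379 at 8h, a log2 fold change of 0.60 that was 0.54 without IL3-OHT 4h replicate 1 and 0.55 without IL3-OHT 8h replicate 2, both under the threshold. *Slc40a1*, ferroportin, the exporter of iron, fell (5671, 5892 and 5951 at 4h and 3359, 3418 and 3274 at 8h; log2 fold change -0.80, standard error 0.05, adjusted p = 3.83e-26), and *Slc25a37*, the mitochondrial iron importer, fell by 0.61. *Mt2*, a metallothionein, and *Slc30a1*, a zinc exporter, fell by 0.87 and 0.79. In lipid transport, *Abcg1*, a cholesterol exporter, had 12114, 12529.7 and 11786 at 4h and 5748, 5855 and 6353 at 8h (log2 fold change -1.02, standard error 0.06, adjusted p = 2.05e-28), and *Scd2*, a fatty acid desaturase, had 3190.3, 3158 and 2924 at 4h and 6335, 6646 and 7267 at 8h (log2 fold change 1.13, standard error 0.08, adjusted p = 3.00e-26). Of 37 cholesterol genes 3 rose and 2 fell.

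Hypoxia-linked genes and glycolytic enzymes moved apart from one another within their lists. Of 16 tested hypoxia genes outside glycolysis 4 rose and 1 fell, with a median of 0.33, and of 29 glycolysis genes 7 rose and 3 fell, with a median of 0.09. *Bnip3* (ENSMUSG00000078566, chromosome 7 from 138890836 to 138909519), a mitophagy receptor, had 892, 679 and 586 at 4h and 2172, 2985 and 3405 at 8h (log2 fold change 1.98, standard error 0.18, adjusted p = 3.80e-18), and *Gys1* (ENSMUSG00000003865, chromosome 7 from 45434844 to 45456619), glycogen synthase, 1015, 690.01 and 649.96 at 4h and 2572, 3237 and 3499.6 at 8h (log2 fold change 2.00, standard error 0.13, adjusted p = 2.62e-26). *Ankrd37* had 320.1, 47.7 and 69.1 at 4h and 613, 668 and 662 at 8h (log2 fold change 2.65, standard error 0.29, adjusted p = 6.42e-14). *Pdk1*, the kinase that keeps pyruvate out of mitochondria, had 535, 383 and 441 at 4h and 1464, 1441 and 1716 at 8h (log2 fold change 1.77, standard error 0.12, adjusted p = 6.82e-26) and *Pfkl*, a phosphofructokinase, 3411, 2322 and 2423 at 4h and 6403, 8571 and 9135 at 8h (log2 fold change 1.57, standard error 0.12, adjusted p = 3.35e-21). *Slc2a1*, the glucose transporter, rose from a mean of 2221 to 7163, and *Tpi1*, *Pgam1*, *Hk3* and *Slc2a6* rose by 0.76 to 0.89. *Adm*, which encodes adrenomedullin, rose from few counts, with 9.28, 4.33 and 0 at 4h and 23.9, 54.6 and 36.2 at 8h.

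Against these, *Pgk1* (ENSMUSG00000062070, chromosome X from 106187100 to 106203699), phosphoglycerate kinase, had 40277, 38660.3 and 37377 at 4h and 19542, 22529 and 23116 at 8h (log2 fold change -0.84, standard error 0.11, adjusted p = 1.27e-10). *Aldoc*, an aldolase, had 147.3, 128.9 and 152.7 at 4h and 53.4, 62.1 and 70.4 at 8h (log2 fold change -1.20, standard error 0.17, adjusted p = 1.27e-09) and *Car9*, a carbonic anhydrase, 3527, 3344 and 3236 at 4h and 1655, 1860.04 and 1875 at 8h (log2 fold change -0.91, standard error 0.15, adjusted p = 2.10e-07). In each of these 3 genes every 8h library was below every 4h library. *Gapdh* (141714 at 4h and 99703 at 8h on average, log2 fold change -0.51), *Ldha* (9631 at 4h and 11887 at 8h, 0.30) and *Hif1a* (3324 at 4h and 3341 at 8h, 0.01), named after their values were seen, were not called.

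The levels of these genes before and after the step differed between the directions. *Bnip3* had 11392 ± 478 counts in undifferentiated cells, 964 ± 106.004 at 3h, 719 ± 156.6 at 4h, 2854 ± 627 at 8h and 11146 ± 712 at 12h (SD, n = 3 each). *Gys1* had 6741 ± 155.4, 835 ± 35.3, 785 ± 200.04, 3103 ± 478 and 10754 ± 961 at the same times. Both means at 4h were far below those of undifferentiated cells, and at 12h *Bnip3* was near and *Gys1* above that level. *Pgk1* had 75326 ± 3664, 49048 ± 1895, 38771 ± 1454, 21729 ± 1917 and 32871 ± 1849.8, so its lowest mean among these times was at 8h, and *Aldoc* and *Car9* also had theirs at 8h (61.98 ± 8.54 and 1797 ± 122.6). The undifferentiated libraries were not taken from wells with OHT, so their levels are given for scale.

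**Figure D2:**
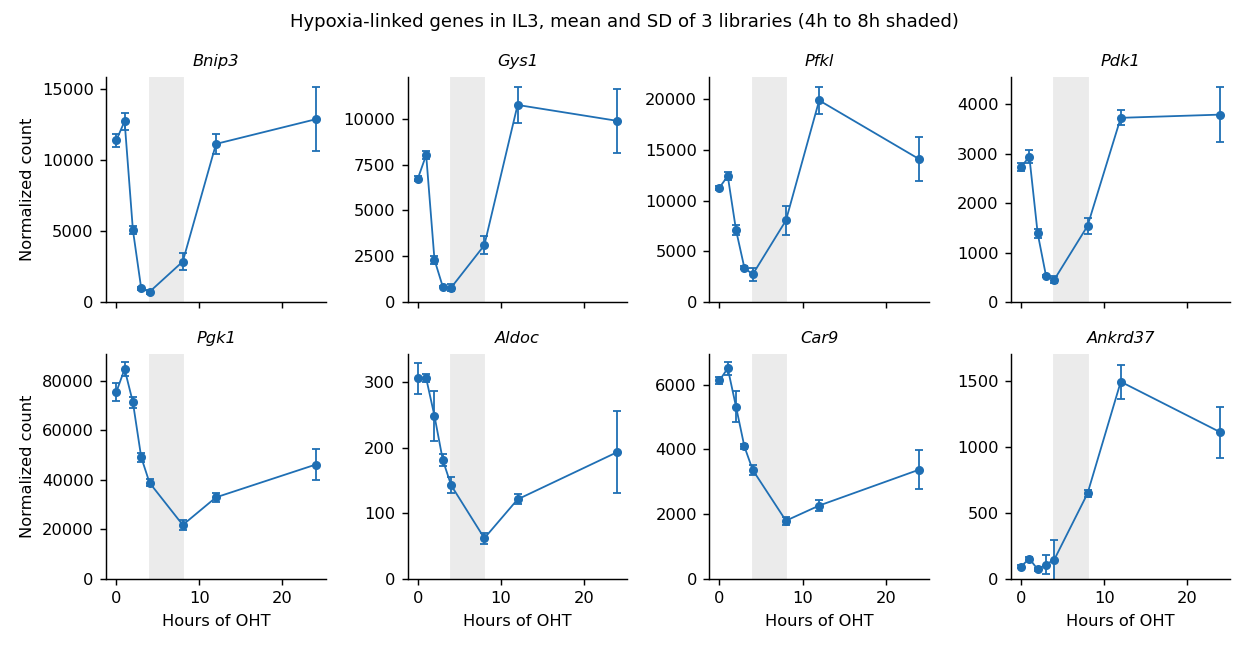
Normalized counts of 8 genes over hours of OHT in IL3, mean and SD of 3 libraries, with the interval from 4h to 8h shaded. *Bnip3*, *Gys1*, *Pfkl* and *Pdk1* climb from their low at 3h to 4h, while *Pgk1*, *Aldoc* and *Car9* reach theirs at 8h, and *Ankrd37* shows a wide SD at 4h.

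The wells of 1 time point differed in these genes. IL3-OHT 4h replicate 1 had the highest 4h count and IL3-OHT 8h replicate 1 the lowest 8h count for *Bnip3*, *Gys1*, *Pfkl*, *Ankrd37* and *Smtnl2*. For the hypoxia list, the median log2 level relative to undifferentiated cells was -1.14, -1.30 and -1.39 in the 3 libraries at 4h and -0.98, -0.60 and -0.69 at 8h. Without IL3-OHT 8h replicate 1 the list had 7 members called higher in place of 4. The difference between wells and its part in these results was not tested.

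Of 24 tested chaperones and folding enzymes of the endoplasmic reticulum 7 rose and none fell, with a median of 0.49, the highest of all lists described here. *Creld2* had 938, 861 and 908 at 4h and 2009.6, 1975 and 1974 at 8h (log2 fold change 1.14, standard error 0.07, adjusted p = 1.22e-30), and *Pdia4* and *Pdia6*, disulfide isomerases, had 6674, 6314 and 6718 at 4h and 11357, 10765 and 11288 at 8h (log2 fold change 0.76, standard error 0.04, adjusted p = 5.25e-33) and 6741, 6157 and 6762 at 4h and 10836, 10698 and 10679.8 at 8h (log2 fold change 0.71, standard error 0.04, adjusted p = 3.76e-31). *Hspa5*, the master chaperone BiP, and *Hsp90b1* rose by 0.66 and 0.85, and *Manf* and *Hyou1* were the remaining 2 that rose. Of 20 heat shock genes 7 rose and 1 fell, with a median of 0.33. *Hspa8*, the constitutive HSP70, had 20513, 18846 and 20125 at 4h and 36993, 32756 and 35675 at 8h (log2 fold change 0.82, standard error 0.06, adjusted p = 2.68e-22), and the mitochondrial pair *Hspd1* and *Hspe1* rose by 0.65 and 0.82. *Hsp90ab1* had 41859, 39361 and 41359.9 at 4h and 62742, 58444 and 63199 at 8h, and its log2 fold change of 0.59 lay between 0.56 and 0.57 without IL3-OHT 4h replicate 2, 8h replicate 1 or 8h replicate 3. *Hspb1*, a small heat shock protein, fell from a mean of 17.6 to 2.18, and the 8h mean lay under the level of 3 reads.

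Immediate-early genes, among the first to react to cytokines, and feedback inhibitors of the ERK kinases were called in 1 direction. Of 29 tested immediate-early genes none rose and 7 fell, with a median of -0.21. *Egr1*, the zinc-finger factor of the macrophage path, had 2576, 2703 and 2818 at 4h and 1472, 1451 and 1491 at 8h (log2 fold change -0.87, standard error 0.18, adjusted p = 2.15e-05), and its 4h and 8h libraries did not overlap. *Fosb*, *Klf2* and *Btg1* fell by 1.02, 0.98 and 0.74. *Egr2* was not called (56.8, 57.4 and 59.1 at 4h and 81.9, 77.1 and 73.3 at 8h; log2 fold change 0.42), nor was their co-repressor *Nab2* (-0.13). Feedback inhibitors of the ERK kinases followed, 5 of 15 lower and none higher: *Dusp4* had 459, 505 and 492 at 4h and 215.3, 248 and 238 at 8h (log2 fold change -1.05, standard error 0.20, adjusted p = 9.41e-06), *Dusp1* 914, 785 and 838 at 4h and 442, 511 and 450.3 at 8h (log2 fold change -0.85, standard error 0.14, adjusted p = 7.34e-08) and *Spred3* 119, 103.99 and 117.3 at 4h and 52.4, 58.9 and 56.2 at 8h (log2 fold change -1.01, standard error 0.17, adjusted p = 3.79e-07). *Socs3*, the feedback inhibitor induced by STAT factors, fell as well, with 17278, 17054 and 18394 at 4h and 8881, 9908 and 9543 at 8h (log2 fold change -0.90, standard error 0.08, adjusted p = 1.66e-18). *Osm*, another STAT target, fell by 0.68. Of 16 tested STAT targets of IL3, 3 fell and 1 rose, with a median of -0.16.

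Inflammatory mediators had a median of -0.38, the lowest outside the lists of markers of other cells, with none of 23 higher and 6 lower. The summed level of the list per library did not fall, with 138965 to 142331 at 4h and 138865 to 143661 at 8h. *Ccl3*, a chemokine, had 1889, 1864 and 1899.9 at 4h and 1118, 1015 and 1134 at 8h (log2 fold change -0.79, standard error 0.09, adjusted p = 2.32e-12) and *Ccl4* 469.7, 413 and 492 at 4h and 243, 232 and 248 at 8h (log2 fold change -0.92, standard error 0.14, adjusted p = 1.25e-08). *Csf1*, the macrophage growth factor, fell by 0.84, and *Cxcl1* and *Il1a* fell from means under 10 counts. Interferon-stimulated genes went the other way, 8 of 34 higher and 1 lower, with 5 higher without IL3-OHT 4h replicate 2. *Ifit2* had 146, 161 and 188 at 4h and 308, 296 and 287 at 8h (log2 fold change 0.85, standard error 0.10, adjusted p = 5.39e-12) and *Ddx58*, the RNA sensor RIG-I, 109.01, 120.2 and 134 at 4h and 213, 187.4 and 199 at 8h (log2 fold change 0.72, standard error 0.10, adjusted p = 5.93e-10), while *Ifit3* and *Ifi44* reached only 10.4 and 6.02 counts. *Isg20*, an exonuclease, was the one that fell (459, 393 and 449.97 at 4h and 205.2, 204.5 and 215.2 at 8h; log2 fold change -1.05, standard error 0.12, adjusted p = 8.88e-13). The NF-kB feedback gene *Tnfaip3* rose (162, 141.9 and 159.99 at 4h and 257, 252 and 251 at 8h) and *Nfkbiz* fell (441, 458 and 479.97 at 4h and 279.7, 289 and 311 at 8h).

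Of 36 transcription factors of the myeloid lineage 2 rose and 3 fell, near the shares of all genes. *Gfi1* (ENSMUSG00000029275, chromosome 5 from 107716657 to 107726036), a repressor that favours granulocytes, had 871, 785 and 845 at 4h and 1451, 1412 and 1409.9 at 8h (log2 fold change 0.77, standard error 0.06, adjusted p = 5.69e-22), and *Tfec*, of the MiT family, 1360.3, 1469.9 and 1381 at 4h and 2625, 2391 and 2482 at 8h (log2 fold change 0.83, standard error 0.06, adjusted p = 5.30e-22). *Cebpb*, a C/EBP factor of monocytes and of stress responses, had 15374, 15441 and 16174 at 4h and 8437, 10958 and 9248 at 8h (log2 fold change -0.72, standard error 0.15, adjusted p = 2.57e-05), and *Klf5* 880.2, 912 and 896 at 4h and 535, 629 and 566 at 8h (log2 fold change -0.64, standard error 0.09, adjusted p = 1.39e-09). *Irf4*, which also fell, had a mean of 5.61 counts at 4h. *Cebpa* (17493, 18226 and 18772 at 4h and 12594, 15186 and 13282 at 8h; log2 fold change -0.41), *Cebpe* (1021, 949.99 and 979.9 at 4h and 1267, 1239 and 1438 at 8h; 0.42), *Zeb2* (5840.2, 6305 and 5839 at 4h and 4527, 4671 and 4380.3 at 8h; -0.40) and *Per3* (252, 247 and 234 at 4h and 327, 283 and 299 at 8h; 0.31) were not called. *Irf8* and *Gata2* lay under 25 counts in every library and were not called.

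Progenitor genes did not move as 1 group. *Sox4* had 3352, 3639.6 and 3498 at 4h and 1746, 2303 and 1826 at 8h (log2 fold change -0.85, standard error 0.11, adjusted p = 3.92e-11) and *Kit*, the receptor for stem cell factor, 5482, 5936 and 5822 at 4h and 3847, 3523 and 3736 at 8h (log2 fold change -0.63, standard error 0.06, adjusted p = 6.41e-19), whereas *Myb*, a factor of proliferating progenitors, had 1252, 1233 and 1163 at 4h and 1911, 1844 and 1909.8 at 8h (log2 fold change 0.64, standard error 0.05, adjusted p = 3.74e-22). Of 21 tested members 3 rose and 2 fell. Among survival genes, *Bcl2* had 135.7, 138.7 and 182 at 4h and 299, 299.8 and 314 at 8h (log2 fold change 1.01, standard error 0.10, adjusted p = 1.27e-16) and *Bax*, its pro-apoptotic relative, 3073, 2855 and 3141 at 4h and 5061, 5269 and 5207 at 8h (log2 fold change 0.78, standard error 0.08, adjusted p = 1.27e-14), while *Bcl2l11*, which encodes the death inducer BIM, had 2154, 2273 and 2184 at 4h and 1024, 984 and 1062 at 8h (log2 fold change -1.11, standard error 0.05, adjusted p = 3.61e-39). *Bcl2a1d*, a survival gene of the same family, had 3.48, 6.50 and 9.09 at 4h and 40.5, 37.5 and 24.8 at 8h, and reads of the *Bcl2a1* copies may have been shared among them. *Ccng1*, cyclin G1, had 2593, 2755 and 2809 at 4h and 6657, 6792 and 6438 at 8h (log2 fold change 1.29, standard error 0.07, adjusted p = 5.78e-34). In eicosanoid synthesis *Alox5*, 5-lipoxygenase, had 2047, 2046 and 2039 at 4h and 3685, 3617 and 3944 at 8h (log2 fold change 0.87, standard error 0.04, adjusted p = 8.73e-43) and *Ptgs1*, cyclooxygenase 1, 1596, 1649 and 1769 at 4h and 2713, 2514 and 2763 at 8h (log2 fold change 0.67, standard error 0.05, adjusted p = 2.22e-23), 5 of 18 members of that list being higher and 1 lower.

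None of 81 cytosolic ribosomal protein genes was called, but 76 had a log2 fold change below 0, with a median of -0.19, against 8954 of all 17414 genes. The share of reads in ribosomal protein genes was 6.75% to 7.27% at 4h and 6.26% to 6.37% at 8h. Of 56 mitosis genes 52 were below 0 and 2 were called lower, with a median of -0.26. Of 88 ribosome biogenesis factors 2 rose and 1 fell, with a median of 0.02: *Npm1*, nucleophosmin, had 10458, 10895 and 10987 at 4h and 16895, 17017 and 16497 at 8h (log2 fold change 0.64, standard error 0.07, adjusted p = 1.61e-12), and *Nop53* 5143, 4535 and 4932 at 4h and 2937, 3214 and 3083 at 8h (log2 fold change -0.66, standard error 0.06, adjusted p = 1.83e-16). Of 54 DNA replication genes 2 rose and 1 fell. *Pola1*, the DNA polymerase alpha catalytic subunit, had 245, 298 and 241 at 4h and 524, 536 and 486 at 8h (log2 fold change 0.98, standard error 0.10, adjusted p = 4.36e-15). None of the 13 mitochondrially encoded genes was called.

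The same interval was set against GCSF to ask which changes differed between the arms. The arms differed in cytokine, pre-treatment and OHT dose together, so a difference cannot be assigned to the cytokine alone. No library is shared between the steps, and the difference of the log2 fold changes was tested as an interaction in the same fit. The difference was called for 1555 of 17414 genes (8.93%), with the IL3 step higher in 723 (4.15%) and lower in 832 (4.78%). In GCSF itself 550 genes rose (3.16%) and 371 fell (2.13%), together 5.29%. Of the 847 genes that rose in IL3, 207 also rose in GCSF, which is 24.4% of the IL3 genes and 37.6% of the GCSF genes. Of the 987 that fell in IL3, 77 also fell in GCSF, 7.80% of the IL3 genes and 20.8% of the GCSF genes.

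**Figure D3:**
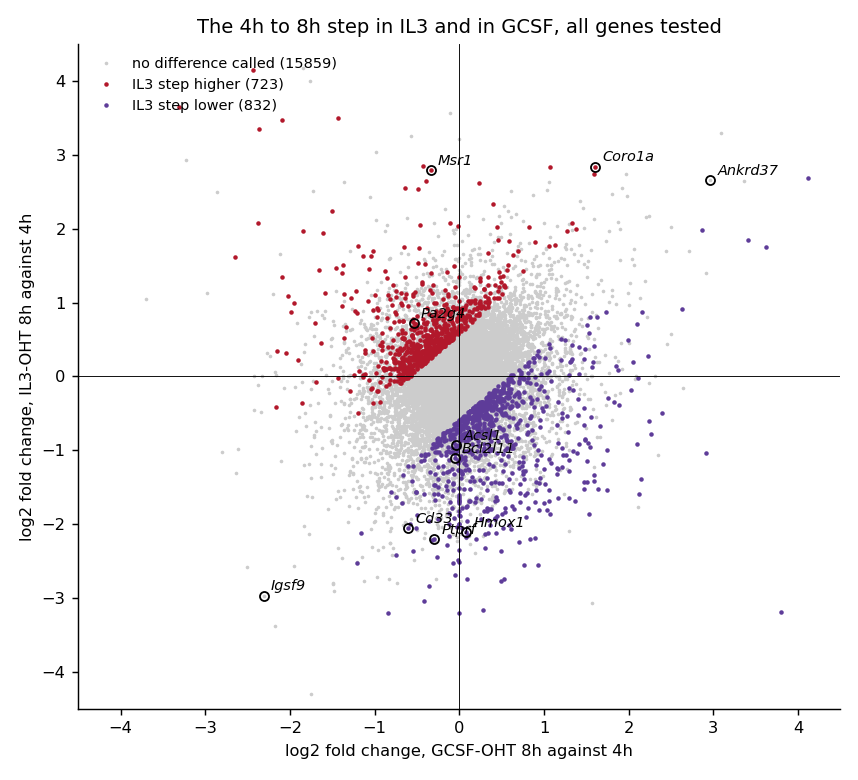
Log2 fold change of the step from 4h to 8h in GCSF (x axis) and in IL3 (y axis) for the genes tested, with 723 genes whose IL3 step was called higher in red, 832 called lower in purple and the others in grey; 1 gene lies outside the axes. *Hmox1* and *Bcl2l11* lie far below 0 on the IL3 axis and near 0 on the GCSF axis, *Msr1* far above 0 on the IL3 axis, and *Coro1a* and *Ankrd37* above 0 on both.

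Ribosome biogenesis was the list with the most called differences. In GCSF 33 of the 88 factors fell and none rose, with a median of -0.47, while the IL3 median was 0.02, and the difference was called in 41 members, all with the IL3 step higher. The median log2 level of the list relative to the 0h libraries of each arm was 0.62, 0.60 and 0.65 in the IL3 libraries at 4h and 0.65, 0.65 and 0.64 at 8h. In GCSF it was -0.01, 0.04 and -0.01 at 4h and -0.52, -0.47 and -0.42 at 8h. The IL3 0h libraries lacked the 48 h in wells that the GCSF 0h libraries had. Heights above 0h are therefore not like for like between the arms. At 12h the IL3 libraries stood at 0.09, 0.14 and 0.12. DNA replication genes differed in the same direction, with 17 of 54 called, 13 fallers in GCSF and GCSF and IL3 medians of -0.43 and 0.05.

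Of the 8 genes with the smallest adjusted p among those with the higher IL3 step, *Atic*, of purine synthesis, had 3006, 3017 and 3014 at 4h and 4072, 4239 and 4163 at 8h in IL3 and 1911, 1959 and 1949 at 4h and 969.8, 1024 and 1103 at 8h in GCSF (difference 1.38, standard error 0.09, adjusted p = 1.21e-25). *Pa2g4*, a growth-linked RNA-binding protein, had 3784, 3450.1 and 3769 at 4h and 6232, 5937 and 5962 at 8h in IL3 and 3735, 3955 and 3802 at 4h and 2575, 2628 and 2700.2 at 8h in GCSF (difference 1.26, adjusted p = 1.10e-25). Differences for *Impdh2*, of guanine nucleotide synthesis, *Kars*, a lysine-tRNA synthetase, *Nsun2*, an RNA methyltransferase, *Sf3b3*, a splicing factor, *Nomo1* and *Alox5* lay between 0.85 and 1.11. Of 36 aminoacyl-tRNA synthetases 6 had a higher IL3 step and none a lower one. Heat shock genes gave 5 of 20 higher differences, with no call in GCSF in either direction.

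Among named genes with the lower IL3 step, *Hmox1* had 1122, 1069.8 and 998 at 4h and 1347, 1025 and 1032 at 8h in GCSF, far under its IL3 level at 4h, and the difference between the steps was -2.19 (standard error 0.15, adjusted p = 6.49e-25). *Bcl2l11* had 1345, 1259 and 1266 at 4h and 1312, 1198 and 1217 at 8h in GCSF (difference -1.05, adjusted p = 8.84e-25). *Chst11*, a chondroitin sulfotransferase, had 1204, 1216 and 1108 at 4h and 397, 395 and 439 at 8h in IL3 and 1107, 1141 and 1079.5 at 4h and 1197, 1111 and 1156 at 8h in GCSF (difference -1.58, adjusted p = 2.08e-32). *Acsl1*, a fatty acid ligase, had 8048, 8049 and 7814 at 4h and 4237, 3944 and 4344 at 8h in IL3 and 4176, 4032 and 4119 at 4h and 3909, 4111 and 3983 at 8h in GCSF, and *Tnfaip2*, an NF-kB target, 12917, 12559 and 12746 at 4h and 6274, 6225 and 6330.00 at 8h in IL3 and 8043, 8087 and 7694 at 4h and 7763, 7456 and 7306 at 8h in GCSF. Neither *Acsl1* nor *Tnfaip2* was called in GCSF. The immediate-early list had 7 lower differences of 29 and none higher. *Egr1* had 72.9, 89.5 and 70.2 at 4h and 68.4, 82.7 and 81.3 at 8h in GCSF, a difference of -0.88, at counts far under those of IL3.

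Of the 16 hypoxia genes 4 rose and 1 fell in IL3, and 11 rose and none fell in GCSF, with a GCSF median of 0.84, and 6 of the 16 had a lower IL3 step. The median log2 level relative to GCSF 0h was -0.22, -0.17 and -0.15 in the GCSF libraries at 4h. At 8h it was 1.09, 0.46 and 0.48, so GCSF-OHT 8h replicate 1 stood well above the others. The part of that library in the GCSF rise and in the differences was not tested. *Bnip3* had 512, 568 and 582 at 4h and 5999, 3129 and 3468 at 8h in GCSF, a difference of -0.88 (adjusted p = 0.00451). For the macrophage genes, the difference was called for *Msr1* (2.80, 1.84 and 4.19 at 4h and 0, 3.45 and 5.24 at 8h in GCSF; difference 3.13, adjusted p = 3.37e-07), whose GCSF counts lay around the level of 3 reads, and *Coro1a* (1.23). The difference was not called for *Adgre1* (0.62, adjusted p = 0.205), *Lyz2* (0.30), *Itgam* (-0.44) and *Ccr2* (-0.06). Each of these was called higher at 8h in GCSF as well. Over the 32 monocyte and macrophage markers 8 rose and 1 fell in GCSF, with a median of 0.08. In this list 3 members had a higher IL3 step and 1 a lower one. Of 24 Fc and paired receptors 7 rose and 1 fell in GCSF, and of 17 chemoattractant receptors 4 rose and none fell. Of the endoplasmic reticulum chaperones 2 of 24 rose in GCSF, with a median of 0.28. The 1 difference called in this list had the lower step in IL3. At 8h the median log2 level of the list in the middle library was 0.21 above 0h in IL3 and 0.21 in GCSF. The 0h libraries of the arms differ in time in wells, so these 2 levels are not like for like.

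**Figure D4:**
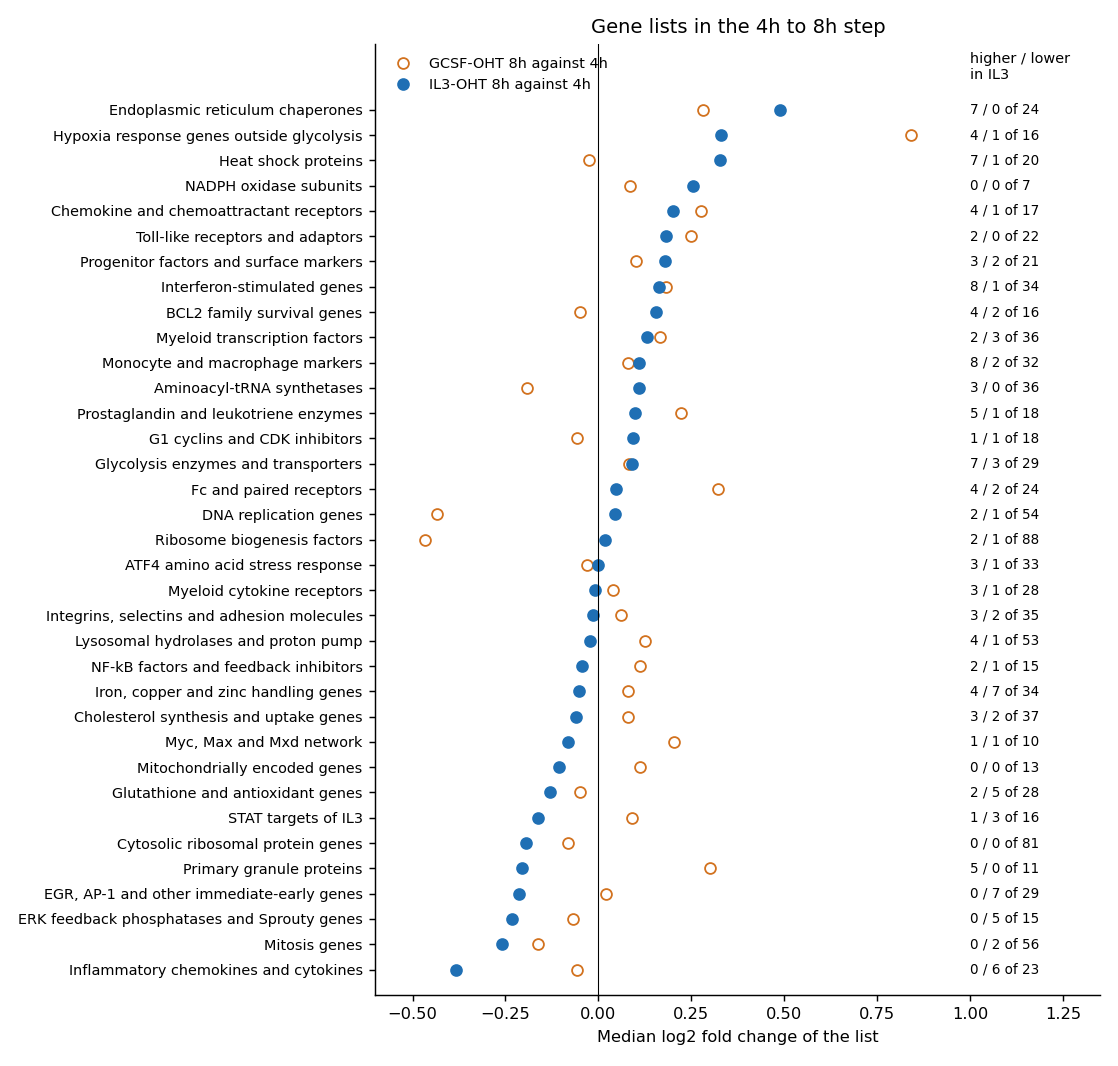
Median log2 fold change from 4h to 8h of each gene list in IL3 (filled blue) and GCSF (open orange), with the members called higher and lower of those tested in IL3 at the right. Ribosome biogenesis factors and DNA replication genes lie near 0 in IL3 and at -0.47 and -0.43 in GCSF, and endoplasmic reticulum chaperones have the highest IL3 median.

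**Figure D5:**
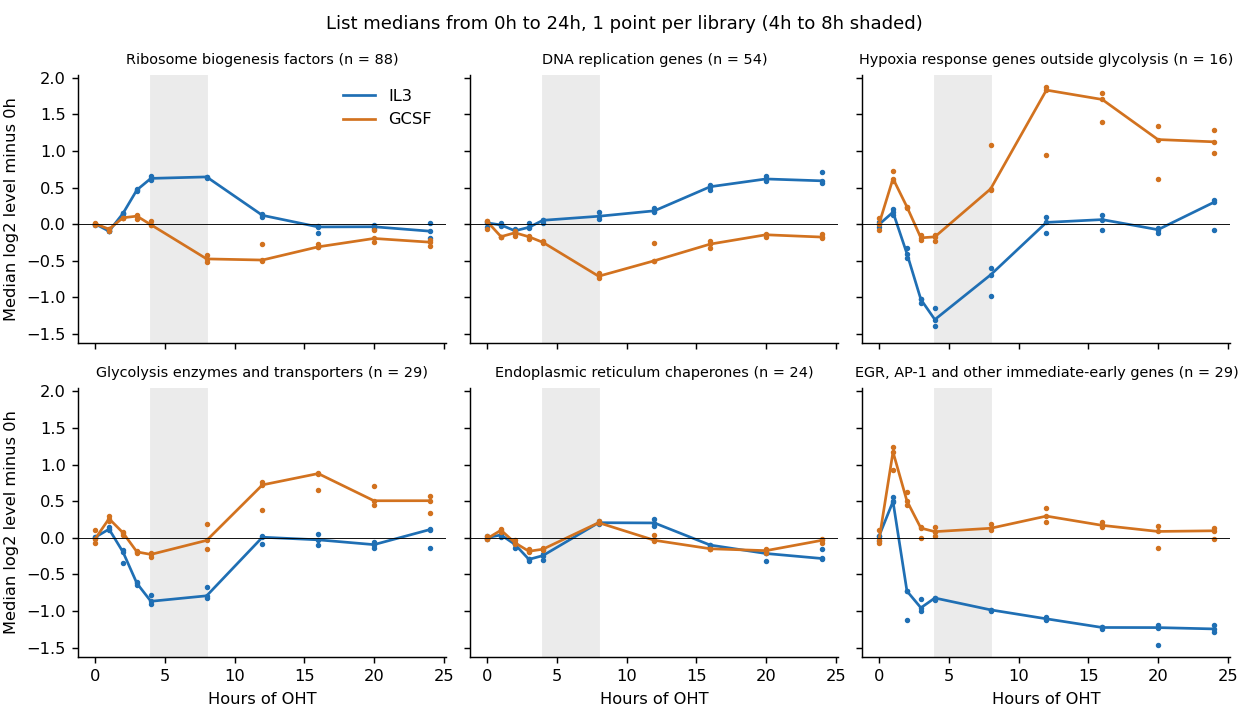
Median log2 level of 6 lists relative to the 0h libraries of each arm, from 0h to 24h of OHT, 1 point per library, with a line through the middle library and the interval from 4h to 8h shaded. Ribosome biogenesis factors hold at about 0.6 in IL3 between 4h and 8h while they go down in GCSF, and hypoxia genes start to climb in both arms in the shaded interval. The 0h libraries of the arms differ in time in wells, so heights are not like for like between arms.

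The libraries at 3h and 12h bracket the step and did not enter it. Between them 1872 genes rose (10.7%) and 2216 fell (12.7%). Of the 847 that rose from 4h to 8h, 670 (79.1%) also rose from 3h to 12h, 35.8% of the genes that rose there, and 8 fell. Of the 987 that fell, 736 (74.6%) also fell, 33.2% of the genes that fell there, and 3 rose. The wider interval gave *Coro1a* a log2 fold change of 4.22, *Msr1* 4.26, *Lyz2* 2.26, *Iglon5* -5.16, *Cd33* -2.74 and *Hmox1* -2.35. Some genes of the step were not called over the wider interval: *Hspa8* had 0.21, *Npm1* 0.55, *Pgk1* -0.58 and *Mxd4* -0.04.

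At the end of the course, IL3-OHT 168h was compared with undifferentiated cells, again in libraries outside the step. There 1782 genes rose (10.2%) and 2641 fell (15.2%). Of the 847 genes that rose from 4h to 8h, 339 (40.0%) were also higher at the end, 19.02% of the genes higher there, and 37 were lower. Of the 987 that fell, 445 (45.1%) were also lower at the end, 16.8% of those lower there, and 47 were higher. *Pirb* ended 7.24 above undifferentiated cells on the log2 scale, *Lyz2* 5.83, *Msr1* 5.58, *Ccr2* 5.17 and *Igsf6* 3.77. *Iglon5* ended at -5.88, *Igsf9* at -4.91 and *Slc7a11* at -4.98. *Egr1* and *Atp6v0d2*, which fell in the step, ended higher than at the start (1.33 and 2.32). *Hspa8*, which rose in the step, ended lower (-0.62), and *Pdia4*, *Creld2*, *Npm1* and *Bax* were not called at the end (0.06, -0.38, -0.06 and 0.25).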

How the data were processed

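RNA was sequenced from PUER cells in 165 libraries. The authors quantified reads with Salmon against GRCm38 and deposited 1 table of gene counts divided by DESeq2 size factors, a normalized signal and not raw counts; how transcripts were summed to genes is not given in the sources used here. Each library was divided by its smallest nonzero value, which was assumed to be 1 read. This gave whole numbers, called recovered reads here, for 100% of nonzero values (relative tolerance 1e-06). A gene was tested when any 1 library reached a normalized count of 5. Log2(value + 1) was fitted in limma 3.58.1 (R 4.3.3) with a mean-variance trend over 159 libraries in 54 groups; 6 libraries of IL3-OHT 96h and 144h, which the study left out, did not enter. Fold changes on this scale understate those of low genes. The script was tested on simulated data. DESeq2 1.42.0 and edgeR 4.0.16 on recovered reads, other filters, pseudocounts, scalings, a fit of only the groups compared, a replicate block and leaving out each library were alternatives.

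Genes were named by rule: the 15 largest rises and 15 largest falls among called genes with a mean of at least 50 and no overlap, up to 3 called genes per list and direction with the smallest adjusted p and a mean of at least 20, the core factors of the study, and the 8 differences of each sign from GCSF with the smallest adjusted p. Other list members were chosen after their values were seen. The members, lists and rules were chosen with earlier results of these data known. Locations are those of GENCODE vM21. Some members of the lists are not reported here by name.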

Additional observations from a re-analysis of the deposited data

Results flagged for a closer look

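Of the genes named by rule, 82 are listed because the step from 4h to 8h differed between IL3 and GCSF by a direct test of the difference (limma, adjusted p under 0.05 and an absolute difference over 0.58 on the log2 scale). Each value is the log2 fold change in IL3 minus that in GCSF, with 3 libraries in each of the 4 groups. The background of this test was 8.93% of all genes, and 16 of the named genes had been chosen by the same contrast. Many others had been chosen by the size or adjusted p of the IL3 step, which enters the difference with the same libraries. The share of named genes listed here therefore cannot be compared with that background.

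The IL3 step was the higher one for 39 genes. The difference was 3.13 for *Msr1*, 1.94 for *Tln2*, 1.38 for *Atic*, 1.30 for *Vars*, 1.26 for *Pa2g4*, 1.23 for *Coro1a*, 1.22 for *Pold2*, 1.21 for *Sirpb1a*, 1.20 for *Slc39a10* and 1.15 for *Pola1*. For the next genes in order of size it was 1.11 for *Impdh2*, 1.07 for *Lars2*, 1.05 for *Ccng1*, 0.93 for *Nomo1*, 0.93 for *Hspa8*, 0.90 for *Il1r2*, 0.88 for *Kars*, 0.87 for *Psat1*, 0.85 for *Nsun2* and 0.85 for *Sf3b3*. Smaller differences followed, with 0.85 for *Alox5*, 0.84 for *Npm3*, 0.82 for *Npm1*, 0.77 for *Bax*, 0.74 for *Gfi1*, 0.74 for *Dglucy*, 0.71 for *Bcl2*, 0.71 for *Mthfd1l*, 0.70 for *Ifngr1* and 0.70 for *Anxa6*. The smallest of these differences were 0.70 for *Vars2*, 0.68 for *Hsp90ab1*, 0.66 for *Gusb*, 0.64 for *Igsf6*, 0.64 for *Pdk1*, 0.62 for *Gys1*, 0.61 for *Tfec*, 0.61 for *Ahsa1* and 0.58 for *Bcl11a*.

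The IL3 step was the lower one for 43 genes. On this side the difference was -3.26 for *Dbn1*, -2.36 for *Ptpn5*, -2.19 for *Hmox1*, -2.15 for *Dok7*, -1.90 for *Ptprf*, -1.67 for *Spsb1*, -1.58 for *Chst11*, -1.57 for *Isg20*, -1.54 for *Osbpl3*, -1.45 for *Cd33* and -1.43 for *Smtnl2*. Further down in size it was -1.35 for *Itga2b*, -1.32 for *Glipr1*, -1.32 for *Apba2*, -1.28 for *Aldoc*, -1.24 for *Ptges*, -1.06 for *Mxd4*, -1.05 for *Bcl2l11*, -0.99 for *Nfkbiz*, -0.96 for *Lamb1*, -0.96 for *Slc7a11* and -0.94 for *Tnfaip2*. Next came differences of -0.94 for *Abca1*, -0.92 for *Rasa3*, -0.90 for *Dusp1*, -0.90 for *Abcg1*, -0.90 for *Acsl1*, -0.88 for *Slc40a1*, -0.88 for *Egr1*, -0.88 for *Bnip3*, -0.87 for *Spred3*, -0.85 for *Atp6v0d2* and -0.83 for *Socs3*. The smallest in size were -0.76 for *Pgk1*, -0.75 for *Btg1*, -0.68 for *Ccl4*, -0.65 for *Klf10*, -0.62 for *Cd84*, -0.61 for *Cebpb*, -0.59 for *Cenpa*, -0.59 for *Kit*, -0.59 for *Slc25a37* and -0.58 for *Klf5*.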

How the results depend on the processing

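The counts of called genes in the step, the difference from GCSF, 3h to 12h and the end of the course stayed within 1.5 times their value under every alternative run, and those of the GCSF step did so except under the replicate block. No named gene was called in the opposite direction. Leaving out 1 library at a time gave 790 to 857 genes higher and 878 to 921 lower in the step, 663 to 756 and 726 to 844 in the difference from GCSF, 1782 to 1847 and 2045 to 2067 from 3h to 12h, and 1725 to 1768 and 2414 to 2572 at the end of the course. On recovered reads DESeq2 called 791 higher and 837 lower in the step, with no adjusted p given for 3074 genes, and edgeR called 843 and 838. A filter at a mean of 10 left 12298 genes, with 779 higher and 696 lower, so the direction with more calls was reversed. Same-numbered wells of IL3 4h and 8h had correlations of deviations of 0.019, 0.068 and 0.042, and IL3-OHT 4h replicate 1 correlated better with another number, so the numbers do not pair the samples. With the replicate number as a block the step had 630 genes higher and 689 lower, which held 68.4% and 62.0% of the genes called without it, and the difference from GCSF had 697 and 709. Under the block the GCSF step had 316 genes higher and 285 lower in place of 550 and 371, the genes shared by both steps went from 207 to 95 higher and from 77 to 44 lower, and those higher in the step and at the end from 339 to 221. Of the hypoxia list 1 member was called higher under the block and of the interferon list 4. In the same fit without the block the step had 776 and 886. Genes under about 3 normalized counts, the level of 3 reads, could not be compared at this depth.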
